A study of Mus musculus with 11 samples.

Results

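The genes described here are the natural antisense transcripts that mouse macrophages expressed well enough to be measured, together with the protein-coding genes they overlap or are named after. An antisense transcript is an RNA read from the DNA strand opposite to another gene. The members are the 368 gene IDs whose deposited biotype is antisense and whose mean level was at least 1 CPM (the count as a share of the library's total, scaled up) over all 11 libraries, out of 2991 antisense IDs and 55487 gene IDs in all. Gas5 and the Snhg host genes, which carry small nucleolar RNAs, were left out. The members were thus chosen by their measured level, which is given only as a description, and the difference between the groups was no part of the rule. Closest to the minimum were 1700025N23Rik (0.990 CPM) and Gm15886 (0.993 CPM) just below it, and 4921515L22Rik (1.01 CPM) and A330084C13Rik (1.01 CPM) just above it.

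The cells were bone marrow-derived macrophages of C57BL/6J mice aged 2 to 5 months, matured in medium with CMG-conditioned supernatant, which all groups received. The control group (7 libraries) had 0 µg/ml and the treated group (4 libraries) 0.5 µg/ml of CYR61, a secreted matrix protein, for 24 h. Total RNA was depleted of ribosomal RNA with RNase H and primed with random hexamers, so RNA without a poly(A) tail and unspliced RNA was kept. Strandedness of the libraries, any vehicle in the controls and the number of mice or cultures behind the replicates are not stated in the labels, so a p-value here weighs a difference against library-to-library spread that may be partly technical.

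Antisense transcripts are mostly long non-coding RNAs. Many start near the promoter of a coding gene and run away from it (divergent), others meet the coding gene at its 3′ end (convergent) or lie inside it. Some are known to act on their neighbours, as Kcnq1ot1 and Airn do when they silence the imprinted genes around them. Many others are removed in the nucleus by the RNA exosome soon after they are made. With a strand-blind library, a read from an exon that both genes share cannot be assigned to either of them.

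The members were low and mostly unnamed genes. Their median level was 2.23 CPM, with 161 at 1 to 2 CPM, 148 at 2 to 5, 49 at 5 to 20 and 10 at 20 or more. Of the symbols, 229 start with Gm and 95 end in Rik, the provisional names of genes without an assigned function. Another 34 carry the name of a coding gene followed by os (opposite strand), and 0 end in -as. In the GENCODE M21 annotation, used here only to find neighbours and exon lengths, 358 members overlap a protein-coding gene on the opposite strand. Of these, 58 overlap more than 1 such gene, and 10 members overlap none.

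Members lie head to head with, tail to tail with or inside their coding neighbours, and promoters of a few pairs that recur below are printed to show what lies before each start. All are RefSeq windows on GRCm38.p6, 5′ to 3′ on the gene's own strand. Jun (chr4:95052223-95052472, minus strand) and Junos start back to back, and the capitals mark the 94 bases between their RefSeq starts (in M21 their exons share 232 bases). In the others the capitals mark matches, on either strand, to the promoter motifs searched: TATAAA (the TATA box), GGGCGG (the core of the binding site of the activator Sp1), CCAAT (the CCAAT box), and GAAA repeated after any 2 bases, the core of an interferon-stimulated response element (ISRE). Gm20658 (chr12:116111714-116111963, minus strand) and Gm29083 (chr1:62718188-62718437, minus strand) are antisense transcripts that fell with CYR61, and both lie inside a coding gene. Nrp2 (chr1:62703067-62703284, plus strand), which contains Gm29083, and Slfn5 (chr11:82951852-82951984, plus strand), partner of Slfn5os, rose. Their windows stop 32 and 117 bases before the RefSeq start, where an M21 exon of the gene begins.
Jun: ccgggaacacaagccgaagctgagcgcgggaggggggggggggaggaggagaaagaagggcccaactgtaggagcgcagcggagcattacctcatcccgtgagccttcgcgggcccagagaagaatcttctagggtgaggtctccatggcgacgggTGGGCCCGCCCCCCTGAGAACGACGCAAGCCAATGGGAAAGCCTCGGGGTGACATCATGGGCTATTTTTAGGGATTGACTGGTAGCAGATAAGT
Gm20658: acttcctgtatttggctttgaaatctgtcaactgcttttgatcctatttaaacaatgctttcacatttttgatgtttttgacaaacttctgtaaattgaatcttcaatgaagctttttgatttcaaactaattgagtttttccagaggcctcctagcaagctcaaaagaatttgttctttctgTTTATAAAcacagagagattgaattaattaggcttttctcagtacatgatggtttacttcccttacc
Gm29083: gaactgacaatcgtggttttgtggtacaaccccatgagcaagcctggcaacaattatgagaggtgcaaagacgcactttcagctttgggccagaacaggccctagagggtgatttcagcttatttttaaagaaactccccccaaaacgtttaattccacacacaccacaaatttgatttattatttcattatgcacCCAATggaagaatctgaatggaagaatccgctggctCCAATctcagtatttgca
Nrp2: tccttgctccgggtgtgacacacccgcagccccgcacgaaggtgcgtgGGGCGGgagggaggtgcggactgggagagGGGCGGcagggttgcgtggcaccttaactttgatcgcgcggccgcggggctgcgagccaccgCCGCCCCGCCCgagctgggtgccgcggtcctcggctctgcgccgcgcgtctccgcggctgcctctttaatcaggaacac
Slfn5: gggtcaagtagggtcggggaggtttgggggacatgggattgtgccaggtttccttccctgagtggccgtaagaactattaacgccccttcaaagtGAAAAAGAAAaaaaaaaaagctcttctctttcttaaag

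The windows of Gm20658 and Gm29083 hold 0 and 4 CG dinucleotides, and that of Nrp2 holds 28. The same contrast runs through the set. Over the 250 bases before the start, the 139 members found in the RefSeq table had a median of 7 CG dinucleotides, the 347 coding partners by overlap 16, and the whole set of 27025 genes 6. GGGCGG was found in 33.8% of the members' windows, 60.8% of the partners' and 32.9% of all windows. TATAAA was found in 8.63%, 6.34% and 13.0%, CCAAT in 33.1%, 36.3% and 34.5%, and the ISRE core in 4.32%, 2.59% and 3.04%. A match is a description of letters and not a site. Of 155 overlapping pairs with both genes in the RefSeq table, 33 have starts within 500 bases of each other.

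The comparison asks which antisense transcripts changed with CYR61 and whether the coding genes beside them did. Few did: 6 of 368 members passed an adjusted p of 0.05 (1.63%), 2 higher and 4 lower, against 7.96% of all 15135 genes tested (edgeR quasi-likelihood, Benjamini-Hochberg over all genes). By direction, the background was 5.33% of genes higher and 2.63% lower. All 368 members entered the test. In bulk RNA, fewer cells of a type and less RNA per cell cannot be told apart. The precision of single members was low. The median standard error of a log2 fold change was 0.17 for members and 0.07 for all genes tested. Protein-coding genes of 1 to 2 CPM passed in 3.06% of cases and members of that level in 1.86%. At 2 to 5 CPM these shares were 4.58% and 1.35%, and at 5 CPM or more 10.9% and 1.69%. The last range is not matched in level. Its coding genes had a median of 35.1 CPM and its 59 members 8.14 CPM, with median standard errors of 0.050 and 0.098. The differences between these shares were not tested.

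Below the threshold the members lay mostly on the lower side. Their median log2 fold change was -0.09, against -0.008 for all genes tested, and 118 of 368 were above 0 against 7184 of 15135. In 5 members (1.36%) the CYR61 and control libraries did not overlap, 1 above and 4 below, against 7.16% of all genes. At an unadjusted p under 0.05 there were 41 of 368 members, 6 higher and 35 lower, against 3094 of all 15135 genes tested. The same lean was seen in other low non-coding classes of at least 1 CPM. The median was -0.08 for 216 lincRNA genes (10 passed), -0.11 for 172 processed transcripts (6 passed), -0.15 for 649 unclassified transcripts awaiting experimental support (TEC, 11 passed) and -0.12 for 68 sense intronic RNAs (1 passed). It was 0.00 for 11153 protein-coding genes, of which 1106 passed. Protein-coding genes of the members' level also lay lower, with a median of -0.04 at 1 to 2 CPM (260 above 0, 329 below) and -0.03 at 2 to 5 CPM (413 above, 569 below). The members' medians at those levels were -0.11 and -0.06. Scaling by library size alone moved the median of all genes to -0.05 and of members to -0.13, and 15 members then passed (2 higher, 13 lower). That was 4.08% of the members, against 9.69% of all genes tested.

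**Figure D1:**
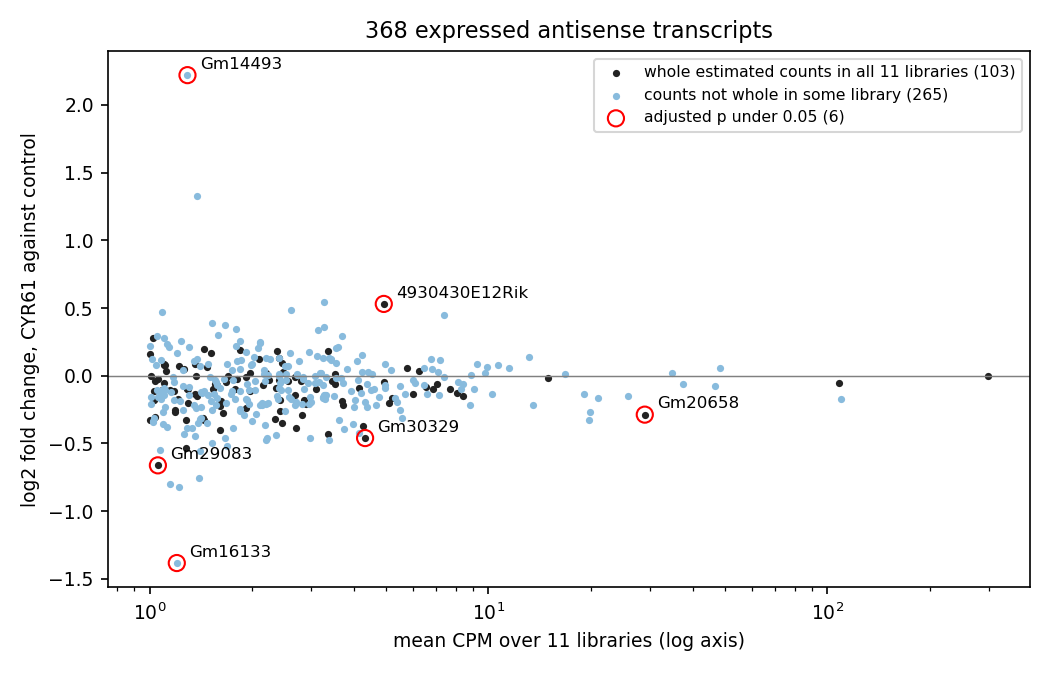
Each point is 1 of the 368 antisense transcripts, by its mean level (CPM, log axis) and its log2 fold change between CYR61 and control. Dark points had whole estimated counts in all 11 libraries (103 members), pale points did not (265), and red circles mark the 6 that passed; most points lie between -0.5 and 0.5, more of them below 0 than above.

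As a share of all counts in a library, the members together held 0.163 to 0.205% in controls (median 0.197%) and 0.174, 0.171, 0.169 and 0.195% in CYR61 replicates 1 to 4, and the groups overlapped. The most abundant member alone, Gm14236, held 16.0% of the members' counts and the top 3 held 27.7%. Without Gm14236 the share was 0.161 ± 0.00485% (SD, n = 7) in controls and 0.148 ± 0.00659% (n = 4) with CYR61. The CYR61 libraries then stood at 0.158, 0.145, 0.145 and 0.145%, and controls at 0.153 to 0.169%, so that only replicate 1 lay within the control range. TEC and sense intronic genes held 0.341 ± 0.0295% and 0.303 ± 0.0173%. All these shares are of total counts, without the scaling of the main fit (TMM). The factors of that scaling were 1.004 to 1.023 in controls and 0.971 to 0.993 with CYR61. Ribosomal RNA took 2.41% of counts in CYR61 replicate 4 and 0.246 to 0.797% elsewhere. The difference between the groups in the members' share was -0.0139 percentage points. With mitochondrial and ribosomal RNA genes left out of the counts it was -0.0134 percentage points. The part of ribosomal RNA alone was not tested.

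The 6 most abundant members did not pass. Gm14236, which shares 90 exon bases with Ripor3 at their 5′ ends, was measured at 107 (lowest), 287 (median) and 448 CPM (highest) in controls and at 158, 267, 252 and 513 CPM with CYR61. That is a spread of more than 4-fold within untreated cells, from 2161 to 9406 counts over the 11 libraries, with a log2 fold change of 0.00 ± 0.30 (SE; edgeR, Benjamini-Hochberg adjusted p = 0.999). Its overlapping gene Ripor3 was near the detection limit, at 0.795 ± 0.174 and 0.775 ± 0.309 CPM.

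Kcnq1ot1, the imprinted transcript that lies inside Kcnq1 and silences its cluster, was measured at 103, 113 and 132 CPM in controls (lowest, median, highest) and 105, 97.6, 91.7 and 111 CPM with CYR61. The groups overlapped, and the difference of -0.17 ± 0.06 on the log2 scale did not pass (edgeR, Benjamini-Hochberg adjusted p = 0.108). It passed in 4 of 21 alternatives, with adjusted p from 0.00882 to 0.315. F630028O10Rik stood at 110 ± 8.54 and 106 ± 12.6 CPM (adjusted p = 0.693, edgeR). Brip1os, Gm45606 and Gm20628 stood at 47.5 ± 1.46 and 49.6 ± 2.34, 47.4 ± 3.39 and 45.2 ± 4.93, and 38.2 ± 2.13 and 36.6 ± 1.41 CPM. Their log2 fold changes lay between -0.07 and 0.06. Counts of Brip1os, Gm45606 and Gm20628 were not whole in any of the 11 libraries, so their levels include divided reads, whose part was not tested. Brip1, after which Brip1os is named, stood at 17.4 ± 0.658 and 18.4 ± 1.79 CPM. Gm20628 contains the histone genes H3c13 and H2bc18, whose exons fall wholly within its own, and Gm45606 overlaps the amino acid transporter gene Slc43a2 (791 ± 29.8 and 810 ± 23.7 CPM).

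Of the 6 members that passed, 4930430E12Rik was the one that rose without any overlapping coding gene. Controls held 3.74, 4.22 and 4.60 CPM (lowest, median, highest) and CYR61 libraries 7.04, 5.67, 6.22 and 5.62 CPM. All 4 CYR61 libraries lay above all controls, as they did in 4.65% of all genes tested and in no other member. The rise was 1.44-fold (log2 0.53 ± 0.09, edgeR, Benjamini-Hochberg adjusted p = 0.00129) and passed in 21 of 21 alternatives. Its counts, 57 to 127 a library, were whole numbers throughout. The nearest coding gene in M21 is Sdcbp, 8120 bases away on the opposite strand, which encodes the scaffold protein syntenin. Sdcbp rose 1.14-fold, from 507 ± 20.7 to 577 ± 27.2 CPM (edgeR, Benjamini-Hochberg adjusted p = 0.00293), with all CYR61 libraries above the controls; that gene was looked at after its values were seen.

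Gm20658, an abundant transcript inside Vipr2 with no exon base in common with it, fell to 0.820 times control. Controls held 24.7, 32 and 33.8 CPM and CYR61 libraries 23.3, 23.7, 26.4 and 27.8 CPM. The groups overlapped at 1 control library, the lowest of the 7 (log2 -0.29 ± 0.08, edgeR, Benjamini-Hochberg adjusted p = 0.0243). Vipr2, a receptor for the neuropeptide VIP, was 1.92 ± 0.457 and 2.05 ± 0.363 CPM. Per kilobase of exon the antisense transcript was therefore the higher of this pair. The call was lost without control replicate 2 (adjusted p = 0.0502) or 4 (0.0522) and without CYR61 replicate 1 (0.0742) or 2 (0.109).

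Gm30329 lies inside 1700011L22Rik, which was too low to be tested, and shares no exon base with it. Controls held 4.07, 4.65 and 6.56 CPM and CYR61 libraries 3.55, 3.45, 2.93 and 3.93 CPM, all below the controls. The fall was to 0.727 times control (log2 -0.46 ± 0.13, edgeR, Benjamini-Hochberg adjusted p = 0.0379). The call was lost without control replicate 2 (0.0588) or 4 (0.0594), and without CYR61 replicate 1 (0.0631), 2 (0.103) or 3 (0.13).

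Gm29083 lies in Nrp2, which encodes neuropilin 2, a receptor for semaphorins and for VEGF-C. They form the single pair of the series' 428 overlapping pairs in which both genes passed, in opposite directions. Gm29083 held 1.09, 1.23 and 1.40 CPM in controls and 0.610, 0.937, 0.646 and 0.873 CPM with CYR61, all below the controls, and fell to 0.632 times control (log2 -0.66 ± 0.20, edgeR, Benjamini-Hochberg adjusted p = 0.0478). These are 11 to 30 counts a library. Nrp2 held 505, 525 and 551 CPM in controls and 577, 585, 563 and 566 CPM with CYR61, all above, and rose 1.09-fold (adjusted p = 0.0188, edgeR). No exon base is shared, and both genes have whole counts in every library. Unspliced Nrp2 reads over the exons of Gm29083 cannot be told apart from antisense reads if the libraries do not keep the strand. The call of Gm29083 held in 6 of 21 alternatives and was lost without any 1 library other than control replicate 7, with adjusted p of 0.0571 to 0.147. That of Nrp2 held in 16 of 21 and was lost, among others, without CYR61 replicate 2 (0.0805) and with scaling by library size alone (0.147).

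The other 2 members that passed share exon bases with their coding gene and have counts that are not whole in some libraries. Gm16133 lies inside Fancc, a gene of the Fanconi anaemia DNA repair pathway, with 1373 of its 4393 exon bases in exons of Fancc. Controls held 0.935, 1.51 and 2.01 CPM and CYR61 libraries 0.499, 0.592, 0.822 and 0.437 CPM, all below. It fell to 0.384 times control (log2 -1.38 ± 0.26, edgeR, Benjamini-Hochberg adjusted p = 0.00213) while Fancc stood at 19.8 ± 1.52 and 20.6 ± 2.04 CPM. Its estimated counts were not whole in 7 of 11 libraries, the 4 CYR61 libraries among them, and the part of divided reads in the fall was not tested.

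Gm14493 lies wholly in exons of Mid1ip1 (543 of 543 bases), a regulator of fatty acid synthesis. Controls held 0, 0.653 and 1.59 CPM and CYR61 libraries 5.71, 1.53, 1.29 and 1.97 CPM, so that the groups overlapped and replicate 1 stood apart. The fitted rise was 4.66-fold (log2 2.22 ± 0.62, edgeR, Benjamini-Hochberg adjusted p = 0.0359). Without CYR61 replicate 1 the log2 value was 1.51 (adjusted p = 0.197), and DESeq2 gave an adjusted p of 0.346. The call was also lost without control replicate 2 (0.0554), 3 (0.0518), 4 (0.0543) or 5 (0.0563) and without CYR61 replicate 4 (0.0521).

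**Figure D2:**
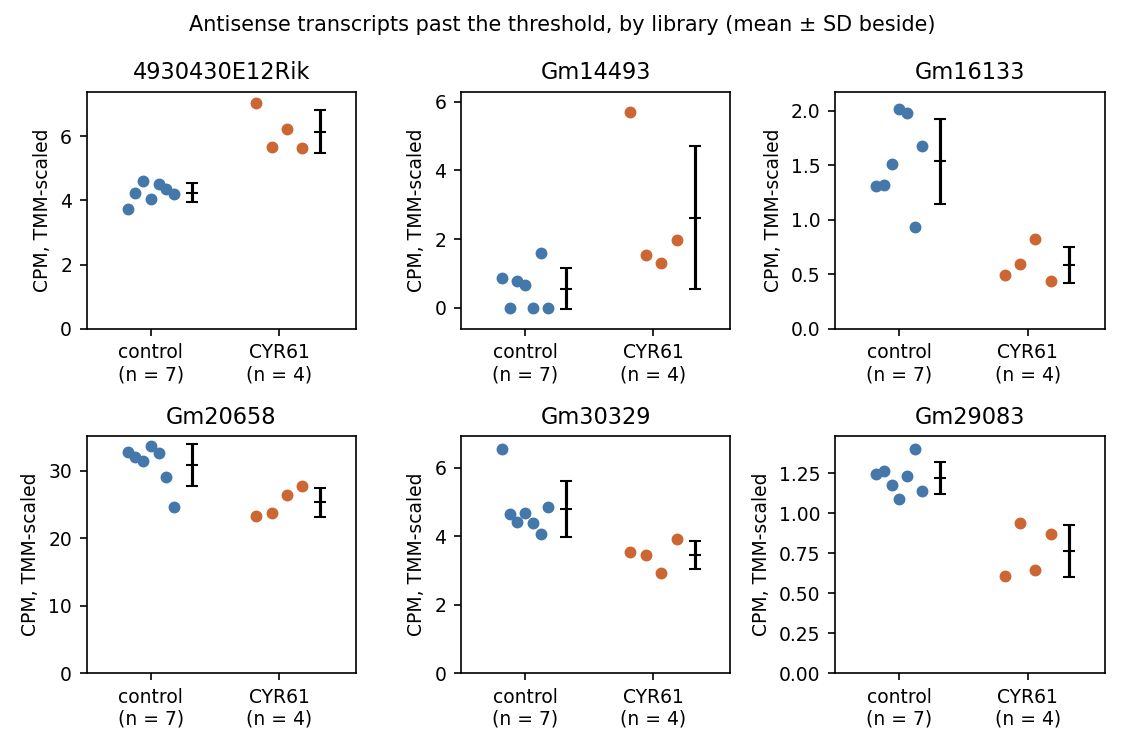
Points are libraries (CPM scaled by TMM, each panel with its own axis), 7 control and 4 CYR61, with the mean ± SD beside them, for the 6 antisense transcripts that passed. Groups are apart for 4930430E12Rik, Gm16133, Gm30329 and Gm29083, and overlap for Gm20658 and Gm14493, where CYR61 replicate 1 is at 5.71 CPM.

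How counts were divided could be read from the counts themselves. Estimated counts are whole where no read was divided with another annotated gene. A whole count does not show the strand of a read, so unspliced reads of a coding gene over antisense exons may be among them. Among 77 members whose exons share no base with any gene in M21, 3 had a count that was not whole. Among 272 members that share exon bases with genes on the opposite strand alone, 247 did, 162 of them in every library. Of 15 with sharing on both strands 14 did, and of 4 with sharing on the same strand alone 1 did. Taking the 281 pairs in which antisense and coding gene overlap no other gene of the kind, the antisense count was not whole in 1911 library values. In 1464 of these (76.6%) the sum of the antisense and the coding count was whole to within 0.011, a closeness that 3% of values with 2 random decimals would have. In 136 of the 200 pairs concerned this held in every such library. Where the sum was whole, the counts were thus shared between genes of opposite strands. For the other values the sharing was not traced.

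Gm14493 and Mid1ip1 show the split plainly. CYR61 replicate 1 had 102.59 counts for Gm14493 and 1849.41 for Mid1ip1, which add up to 1952. Control replicate 2 had 0 and 1962. The antisense gene's part of the sum ran from 0 to 1.5% in controls and was 5.26, 1.42, 1.19 and 1.80% with CYR61, while Mid1ip1 itself stood at 105 ± 3.48 and 106 ± 2.37 CPM. In Gm16133 and Fancc the sum was whole in 10 of 11 libraries, such as 37.23 and 333.77 counts (371) in control replicate 4. There the antisense part was 4.81 to 10.0% in controls and 2.16, 2.76, 4.38 and 2.25% with CYR61. For such a pair, reads made from the antisense strand and reads made from the coding strand cannot be told apart. Of the 103 members with whole counts in every library 4 passed (3.88%), and of the other 265 it was 2 (0.755%).

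**Figure D3:**
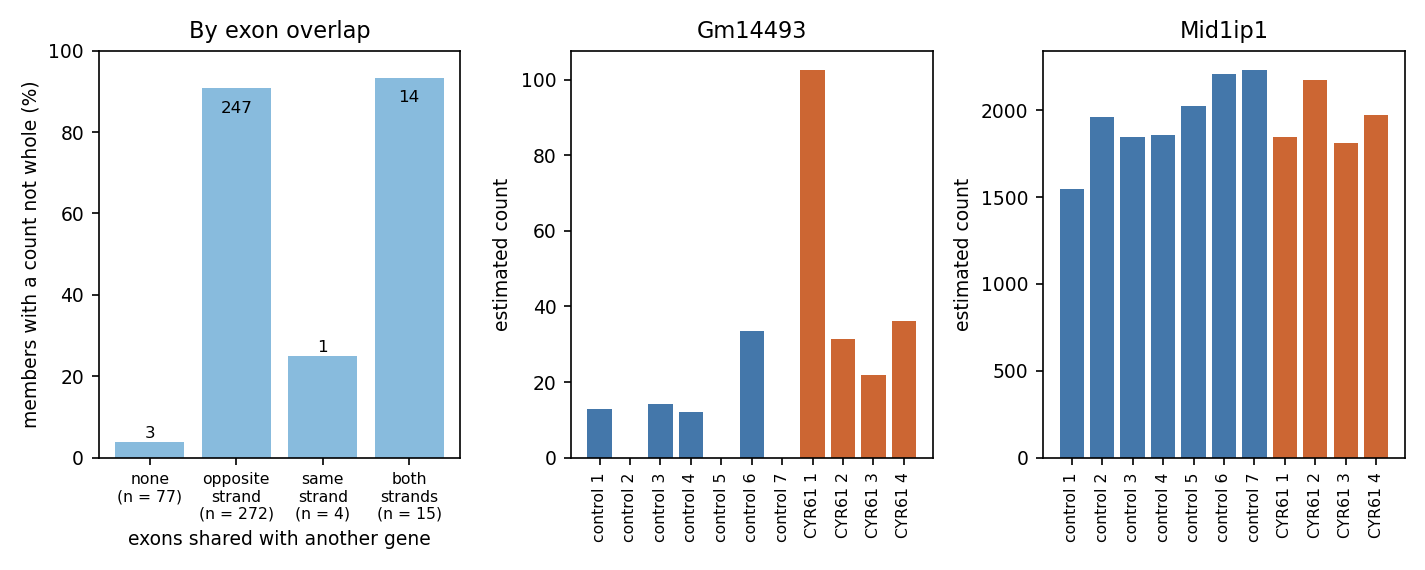
Left, the share of members with a count that was not whole in some library (%), by whether their exons share bases with another gene in M21, with the number of such members on each bar. Middle and right, estimated counts by library for Gm14493 (0 to 102.59) and for Mid1ip1 (1547.09 to 2232), whose exons contain it, with controls in blue and CYR61 in orange.

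The 34 members named after a coding gene form pairs with 32 coding genes. Of these 32, 4 passed (12.5%), 1 higher and 3 lower, against the 7.96% of all genes. Of the 34 antisense members 0 passed in edgeR, with 3 lower at an unadjusted p under 0.05, and DESeq2 called 1 (Zmiz1os1) and limma-voom 0. In M21, 13 of the antisense genes lie inside the partner, 13 overlap its 5′ end head to head, 4 meet its 3′ end, 1 contains it and 3 do not overlap it. Per kilobase of exon, the antisense transcript had a median of 12.9% of its partner's level, from 0.942% (Junos) to 311% (Brip1os). It was above the partner in 3 pairs. Brip1os stood 3.11 times as high per kilobase as Brip1, which encodes a helicase of DNA repair, Zbtb11os1 1.63 times as high as the zinc finger gene Zbtb11, and Mypopos 1.24 times as high as the Myb-related repressor gene Mypop. Counts of Brip1os and Zbtb11os1 were not whole in any of the 11 libraries, and those of Mypopos in 5. Brip1os does not overlap Brip1 and shares 512 and 800 exon bases with Ints2 and Med13, and its own reads over those bases cannot be told apart from theirs.

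**Figure D4:**
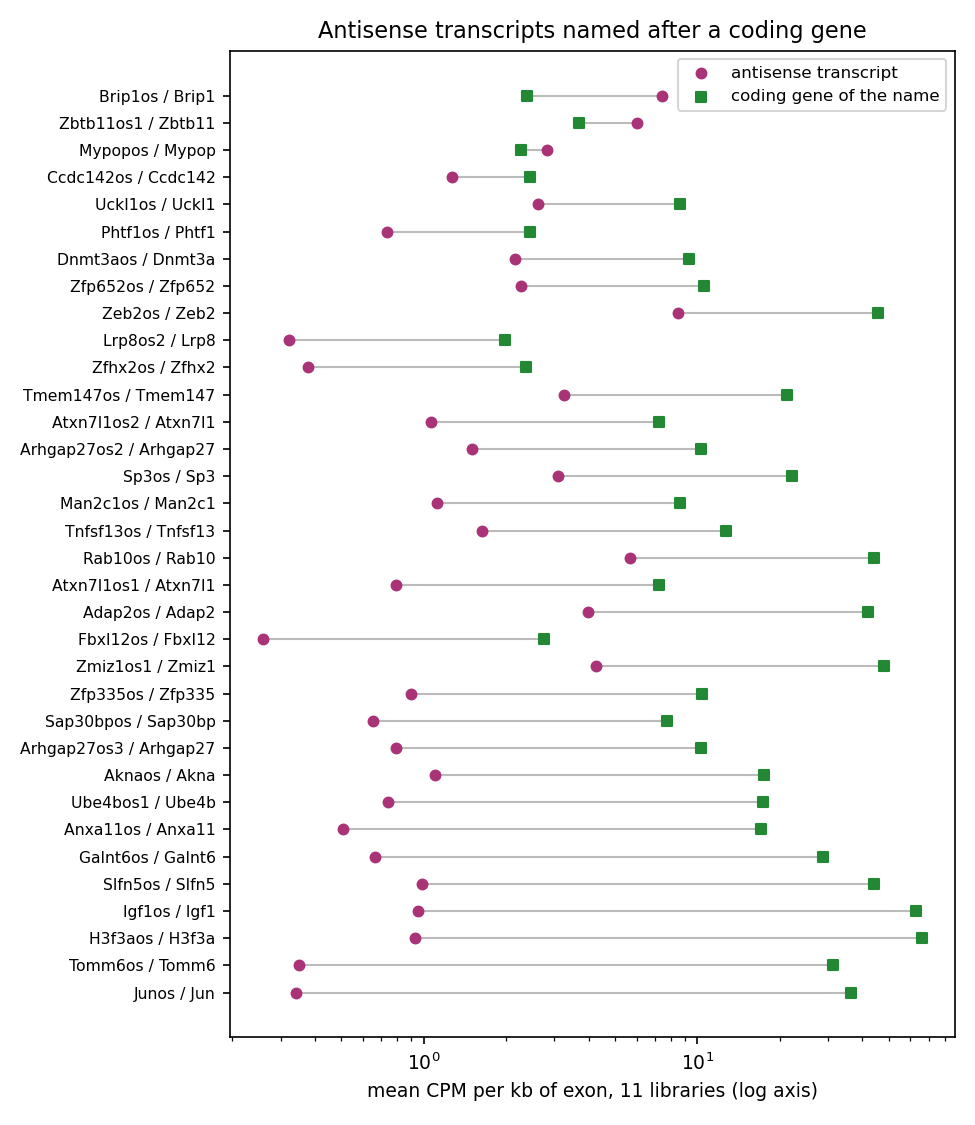
Mean level per kilobase of exon over 11 libraries (CPM per kb, log axis) of the 34 antisense transcripts named after a coding gene (circles) and of that gene (squares), ordered by their ratio. The antisense transcript is the higher in the top 3 pairs and lies below its partner in the other 31.

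Zmiz1 and Zmiz1os1 lay lower together with CYR61, and the call of the first alone passed. Zmiz1 encodes a transcriptional coactivator, and its 5′ end overlaps that of Zmiz1os1 (297 exon bases in common in M21), with RefSeq starts 52399 bases apart. Zmiz1 held 615, 623 and 644 CPM in controls and 573, 559, 564 and 546 CPM with CYR61, all below, and fell to 0.896 times control (log2 -0.16 ± 0.03, edgeR, Benjamini-Hochberg adjusted p = 0.000801). Zmiz1os1 held 18.3, 21.1 and 24.1 CPM in controls and 22.7, 14.8, 15.4 and 14.8 CPM with CYR61. Its replicate 1 lay among the controls and the other 3 lay below all of them (log2 -0.33 ± 0.11, adjusted p = 0.0682, edgeR). Without that library the log2 value was -0.50 (adjusted p = 0.000519, edgeR), and over 21 alternatives the adjusted p ran from 0.000519 to 0.237.

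The other name partners that passed were Slfn5, Fbxl12 and Zbtb11, and their antisense transcripts did not pass. Slfn5, an interferon-inducible Schlafen gene whose printed window holds an ISRE core match, held 215, 260 and 270 CPM in controls and 337, 321, 315 and 333 CPM with CYR61, all above. It rose 1.29-fold (edgeR, Benjamini-Hochberg adjusted p = 9.22e-05). Slfn5os stood at 1.05 ± 0.433 and 1.15 ± 0.367 CPM (log2 0.11 ± 0.32, adjusted p = 0.89), with 2.61 to 29.39 counts a library. Fbxl12, a substrate adaptor of a ubiquitin ligase, fell from 15.0 ± 1.40 to 12.1 ± 0.799 CPM (adjusted p = 0.017, edgeR). That call was lost without CYR61 replicate 2 (0.0724), 3 (0.0603) or 4 (0.0502). Fbxl12os stood at 1.31 ± 0.409 and 1.43 ± 0.177 CPM. Zbtb11 fell from 28.7 ± 1.5 to 25.6 ± 0.715 CPM (adjusted p = 0.0452, edgeR), which held in 7 of 21 alternatives and was lost on leaving out any 1 library other than control replicate 2 (0.0528 to 0.133). Zbtb11os1 stood at 8.22 ± 0.641 and 7.99 ± 1.03 CPM.

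In the remaining pairs of highest antisense level neither gene passed. Rab10os, which meets the 3′ end of the membrane traffic gene Rab10, was among the steadiest members, at 33.7 to 36.2 CPM in controls and 35.1, 34.7, 34.0 and 36.4 CPM with CYR61. Rab10 stood at 152 ± 9.89 and 160 ± 2.79 CPM. Zeb2os, inside the gene of the transcription factor Zeb2, stood at 16.8 ± 0.893 and 17.0 ± 1.40 CPM beside 919 ± 35.9 and 901 ± 9.28 CPM. Mypopos had 9.31 ± 0.946 and 7.97 ± 0.770 CPM (log2 -0.22 ± 0.09, edgeR adjusted p = 0.171). Uckl1os, Tmem147os, Adap2os, Dnmt3aos, Phtf1os and H3f3aos had log2 fold changes from -0.21 to -0.10, with adjusted p of 0.378 to 0.695. Their partners Uckl1, Tmem147, Adap2, Dnmt3a, Phtf1 and H3f3a had log2 fold changes from -0.10 to 0.09, with adjusted p of 0.123 to 0.978.

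The pairs that follow here were chosen after their values were seen. Junos, which starts 94 bases from Jun on the other strand (the printed stretch in capitals), held 1.38 ± 0.222 and 1.46 ± 0.668 CPM. Jun, a subunit of the transcription factor AP-1, held 118 ± 8.13 and 112 ± 4.04 CPM, and neither passed. Igf1os stood at 2.47 ± 0.327 and 2.51 ± 0.539 CPM beside Igf1, the growth factor gene, at 622 ± 32.9 and 624 ± 31.8 CPM. Both have whole counts in every library and share no exon base.

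The ratio of antisense to partner counts, which needs no scaling between libraries, was lower with CYR61 in 23 of 34 pairs and higher in 11, with a median change of -0.07 on the log2 scale. Of the 34 pairs, 26 share exon bases, so their ratios may also carry how shared reads were divided, which was not tested. By the two-sided exact permutation test over 330 splits, 3 ratios had an unadjusted p under 0.05 and 0 passed after Benjamini-Hochberg adjustment. The smallest p this test can give is 0.00303, which would have to be reached by 3 pairs to pass. The lowest was that of Zfp335os (exact p = 0.00909, adjusted p = 0.309). Zfp335os held 0.985, 1.35 and 2.07 CPM in controls and 1.16, 0.740, 0.646 and 0.546 CPM with CYR61, of which replicate 1 lay in the control range. The zinc finger gene Zfp335 stood at 49.2 ± 1.77 and 49.5 ± 1.90 CPM. The other 2 were Lrp8os2 (exact p = 0.0303) and Uckl1os (exact p = 0.0485). Counts of Zfp335os, Lrp8os2 and Uckl1os were not whole in 10, 0 and 11 libraries.

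Over all overlaps in M21 there were 428 pairs with 418 coding partners. Of the 389 partners that were tested, 43 passed (11.1%), 29 higher and 14 lower, against the 7.96% of all genes and 9.92% of protein-coding genes of at least 1 CPM. With scaling by library size alone it was 65, of which 19 were higher and 46 lower. Under that scaling 1467 of all genes passed (9.69%), and the median log2 fold change of all genes was -0.05, against -0.008 in the main fit. Partners were well expressed, and the antisense transcript had a median of 11.6% of its partner's level per kilobase. By position, 5 of the 176 members inside a coding gene passed in edgeR, and the remaining call, 4930430E12Rik, overlaps no coding gene. Of 127 head to head members, 93 tail to tail members and 22 members that contain a coding gene, 0 passed, with 9, 9 and 0 at an unadjusted p under 0.05. In these 3 groups DESeq2 called 2, 0 and 0 members and limma-voom 1, 0 and 0. The difference between positions was not tested.

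Beside the 30 pairs whose coding gene rose, 18 antisense members had a log2 fold change above 0, where 118 of all 368 members did. Beside the 14 pairs whose coding gene fell, 12 members were below 0, where 250 of all 368 members were. The median antisense log2 fold change was 0.06 beside rising genes, -0.28 beside falling genes and -0.09 beside genes that did not pass. The pairs were then divided by shared exon bases. Where the coding gene rose, the antisense value was above 0 in 15 of 21 pairs that share exon bases (median 0.08) and in 3 of 9 pairs that share none (median -0.04). Where it fell, the antisense value was below 0 in 11 of 13 sharing pairs (median -0.33) and in the 1 pair that shares none, Gm4279 and Snx29. The part of divided reads in this pattern was not tested, and Gm29083 was the single antisense member of these pairs that passed.

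**Figure D5:**
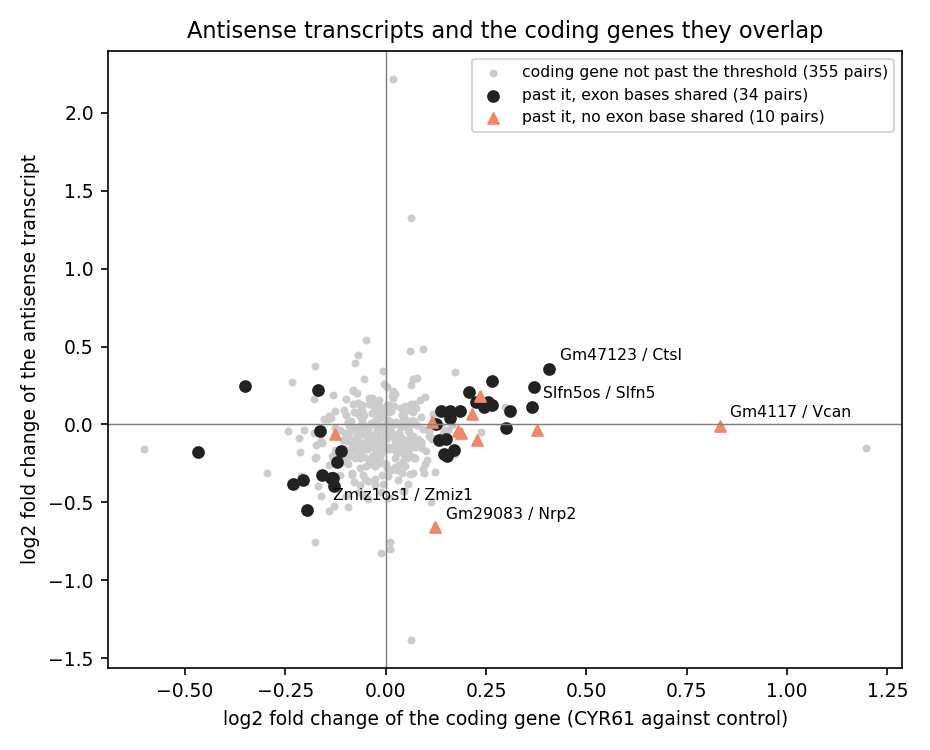
Each point is a pair of an antisense transcript (log2 fold change, vertical) and an overlapping coding gene that was tested (horizontal). Grey pairs have a coding gene that did not pass (355 pairs); of the 44 others, dark circles share exon bases (34 pairs) and lie mostly at the lower left and upper right, and orange triangles share none (10 pairs) and lie near 0 on the vertical axis, apart from Gm29083.

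Named pairs show both kinds, and these too were chosen after their values were seen. Gm47123 lies wholly in exons of Ctsl (1742 of 1742 bases), the gene of the lysosomal protease cathepsin L. Ctsl held 461, 492 and 576 CPM in controls and 632, 692, 665 and 682 CPM with CYR61, all above, and rose 1.33-fold (edgeR, Benjamini-Hochberg adjusted p = 1.95e-05). Gm47123 held 2.49, 2.86 and 3.96 CPM in controls and 3.66, 2.91, 4.58 and 4.20 CPM with CYR61, with overlap (log2 0.36 ± 0.15, adjusted p = 0.16). Its counts made 0.489 to 0.794% of the pair's sum in controls and 0.575, 0.418, 0.681 and 0.614% with CYR61, and every sum was whole to within 0.011.

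Other pairs share no exon base, though unspliced reads of the coding gene over the antisense exons cannot be told apart from antisense reads if the libraries do not keep the strand. Vcan, the gene of the matrix proteoglycan versican, held 3.96, 4.71 and 6.26 CPM in controls and 7.65, 10.6, 7.69 and 9.17 CPM with CYR61, and rose 1.78-fold (edgeR, Benjamini-Hochberg adjusted p = 0.000368). Gm4117, whose 5′ end overlaps that of Vcan, stood at 2.71 ± 0.810 and 2.66 ± 0.371 CPM (log2 -0.01 ± 0.19). Igf2r, the mannose 6-phosphate and IGF2 receptor gene, rose 1.14-fold, from 329 ± 7.35 to 375 ± 3.63 CPM (edgeR adjusted p = 0.000227). Airn, its imprinted antisense transcript, which silences the paternal copy in many tissues, stood at 7.17 ± 0.936 and 6.88 ± 1.22 CPM (log2 -0.06 ± 0.12, adjusted p = 0.843). Its control libraries held 5.88 to 8.14 CPM and the CYR61 libraries 6.82, 5.57, 6.63 and 8.52 CPM, with overlap.

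A few further partners among the 29 that rose are given as examples, with antisense transcripts that did not pass. Most of these pairs do share exon bases. Gm20234 shares none with Slfn2, whereas Gm19412 shares 904 of its 1060 with Tapbp. Counts of Gm19412 were not whole in any of the 11 libraries, so its values include divided reads, whose part was not tested. Slfn2, a Schlafen gene next to Slfn5, rose 1.18-fold (242 ± 9.85 to 284 ± 7.28 CPM, edgeR adjusted p = 0.000215), beside Gm20234 at 3.21 ± 0.622 and 3.63 ± 0.272 CPM. Tapbp, the MHC class I loading factor tapasin, rose 1.24-fold (555 ± 25.1 to 687 ± 39.5 CPM, edgeR adjusted p = 6.4e-05), beside Gm19412 at 1.97 ± 0.422 and 2.11 ± 0.370 CPM. Ikbke, an innate immune kinase gene, rose 1.20-fold (93.9 ± 3.15 to 113 ± 7.22 CPM, edgeR adjusted p = 0.000213) and holds 2 antisense members. These are Gm28913 (0.950 ± 0.234 and 1.15 ± 0.240 CPM) and Gm28914 (0.987 ± 0.265 and 1.07 ± 0.287 CPM). They share 65 and 159 exon bases with Ikbke, and their counts were not whole in 0 and 2 libraries.

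Pim1, a kinase gene downstream of cytokine receptors, rose 1.15-fold (72.2 ± 2.16 to 83.3 ± 8.20 CPM, edgeR adjusted p = 0.00998), beside Gm26885 at 3.41 ± 0.367 and 3.94 ± 0.483 CPM. Cd274, which encodes the checkpoint ligand PD-L1, rose 1.19-fold (21.7 ± 1.55 to 25.7 ± 2.72 CPM, edgeR adjusted p = 0.032), beside Gm36043 at 6.99 ± 0.795 and 7.58 ± 0.685 CPM. The call of Cd274 held in 11 of 21 alternatives, with adjusted p from 0.00224 to 0.191. Lpcat2, a lysophospholipid acyltransferase gene, rose 1.29-fold (38.7 ± 1.6 to 49.9 ± 4.17 CPM), beside Gm45472 at 1.99 ± 0.322 and 2.36 ± 0.234 CPM. Hmgcs1, of the mevalonate pathway, rose 1.23-fold (93.9 ± 5.23 to 116 ± 6.00 CPM), beside Gm48342 at 2.86 ± 0.201 and 2.81 ± 0.603 CPM. Both passed in 21 of 21 alternatives. Gm26885, Gm36043, Gm45472 and Gm48342 share 488, 511, 287 and 557 exon bases with these partners, in that order. Their counts were not whole in any of the 11 libraries, so their values include divided reads, whose part was not tested.

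Genes of the machinery that removes or processes such RNA were looked at as 2 lists. Of 18 genes of the nuclear RNA exosome and its adaptors tested, 0 passed in edgeR, DESeq2 or limma-voom, with 2, 1 and 3 at an unadjusted p under 0.05. Their median log2 fold change was -0.01, as for all genes. The 4 of lowest p were Zfc3h1 (110 ± 4.65 and 104 ± 1.39 CPM), Exosc2, C1d and Mtrex, the exosome's helicase (40.0 ± 1.71 and 38.0 ± 1.77 CPM). Of 15 genes that edit, cut or unwind double-stranded RNA, 2 fell and 0 rose in edgeR (13.3%, against 7.96% of all genes and 2.63% lower). DESeq2 called 3, adding Adar, and limma-voom called the same 2 as edgeR. Ago2, the slicing Argonaute, fell from 268 ± 7.76 to 243 ± 12.0 CPM (edgeR, Benjamini-Hochberg adjusted p = 0.0162), lost without CYR61 replicate 2 (0.0586) or 3 (0.0836). Dicer1 fell from 82.1 ± 1.49 to 76.1 ± 0.901 CPM (adjusted p = 0.0171), lost without CYR61 replicate 3 (0.0569) or 4 (0.0586). For both, all CYR61 libraries lay below all controls, as in 2.5% of all genes. Adar, which edits double-stranded RNA, lay above controls in all 4 libraries, at 141 ± 6.90 and 156 ± 10.1 CPM, and did not pass in edgeR (adjusted p = 0.0506). It passed in 5 of 21 alternatives, with DESeq2 at 0.0246 and without control replicate 7 (0.0347) or CYR61 replicate 4 (0.0492). Ilf2 lay below controls in all 4 libraries and did not pass (adjusted p = 0.0693).

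The libraries held 14912123 to 21047654 counts. Macrophage markers summed to 22539 to 24010 CPM in controls and 24675 to 26473 CPM with CYR61. The highest of them alone had a mean of 18051 CPM, so the sum mostly shows that gene. Of the 8, 6 passed as higher, against 5.33% of all genes. Summed markers of T cells, mast cells, erythroid cells and fibroblasts stayed at or below 1.32 CPM in every library, with Cd3e, Cd3g, Cma1 and Ms4a2 at 0 in all. Neutrophil markers reached 1.42 CPM in controls and 2.07 CPM with CYR61 (1 of 7 tested, higher; Ly6g at 0), dendritic cell markers 2.08 CPM and endothelial markers 6.71 CPM. The B cell list summed to 55.6 to 69.8 CPM in controls and 45.0 to 48.6 CPM with CYR61. Of its 2 tested genes 1 passed as lower, against 2.63% of all genes. Their part in the members' values was not tested.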

How the data were processed

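RNA sequencing of 11 macrophage libraries was analysed. The authors deposited estimated counts per Ensembl gene (expected counts, not normalized). DRAGEN is named per the submitters' processing notes, without version or role, and build and gene models are not given in the sources used. The authors' own table of fold changes was not used.

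Repeated gene IDs were dropped and counts rounded. In R 4.3.3, edgeR 4.0.16 (filterByExpr, TMM, glmQLFit, glmQLFTest) compared 4 CYR61 with 7 control libraries over 15135 genes with no covariate. Two-sided p-values received the Benjamini-Hochberg adjustment across every gene tested (threshold 0.05). CPM values by library are TMM-scaled. Partners came from gene names, and from opposite-strand overlaps in GENCODE M21 (GRCm38) matched by Ensembl ID, which may differ from the authors' annotation. Ratios used log2 of counts plus 0.5. Depth limits precision as the standard errors show.

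Members and lists were chosen with earlier results of these data known. Named are members that passed, the 6 most abundant, the 12 name pairs of highest antisense CPM, the edge of the minimum, overlapping partners of these, and up to 4 genes of lowest p per list. Others were chosen after their values were seen. No test of a list or of a score over members is reported. Alternatives were DESeq2 1.42.0, limma-voom 3.58.1, other scalings and filters, the replicate block, a threshold of 0.01 and leaving out each library.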

Additional observations from a re-analysis of the deposited data

Results flagged for a closer look

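In 13 of 194 groups looked at (the named genes in each treatment), 1 library stood apart from the rest by Dixon's criterion. Chance alone marks about 1 in 20 groups. Of the antisense members, CYR61 replicate 1 was high for Gm14493 (5.71 CPM), Zmiz1os1 (22.7 CPM) and Gm26885 (4.66 CPM), and CYR61 replicate 3 was low for Uckl1os (5.87 CPM). Control replicate 1 was high for Gm30329 (6.56 CPM), control replicate 2 for Gm47123 (3.96 CPM) and control replicate 4 for Zfp335os (2.07 CPM). Of the coding genes, CYR61 replicate 1 was high for Tapbp (746 CPM) and low for Rsbn1 (19.5 CPM), a neighbour of Phtf1os, and CYR61 replicate 4 was high for Tmem147 (26.9 CPM). Control replicate 3 was high for Phtf1 (21.2 CPM) and low for Mtrex (36.2 CPM), and control replicate 6 was low for Slfn5 (215 CPM).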

How the results depend on the processing

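The 6 antisense calls became 15 with scaling by library size alone, 2 at an adjusted p under 0.01 and 3 among members of at least 2 CPM. Leaving out 1 library gave 2 to 11 calls: 2 without control replicate 2, 3 without control replicate 4 or CYR61 replicate 2, and 11 without CYR61 replicate 1, of which 2 were among the 6. Without CYR61 replicates 1 and 4 together, chosen after seeing the data, there were 5, of which 1 was shared. Across the settings in which the whole table was refitted, the share of members that passed was 0.543 to 4.08%, below that of all genes tested (4.04 to 9.69%).

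The 4 name partners became 8 (1 higher, 7 lower) without TMM, 2 at an adjusted p under 0.01, and 2 to 6 when 1 library was left out, with 2 without CYR61 replicate 2, 3 or 4. The 43 overlapping partners became 65 without TMM, 25 at 0.01 and 29 to 54 when 1 library was left out. Of all genes tested, 9.69% passed without TMM, against 7.96% with it. The difference in the members' share of counts, -0.0139 percentage points, was -0.0128 without Gm14236 and -0.0197 to -0.0112 when 1 library was left out, with -0.0185 without control replicate 7. Without any 1 library 0 ratios passed, the lowest exact p being 0.00833 to 0.025. The causes were not tested.

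With the replicate number as a block, in the 8 libraries with numbers 1 to 4, 13 members passed, against 8 in those libraries without it. The labels do not state whether libraries of the same number belong together. Deviations of same-numbered libraries correlated at -0.015, -0.003, -0.052 and 0.048, and those of other-numbered libraries at -0.074 to 0.144. These values cannot show whether same-numbered libraries shared a culture or batch.

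The standard error of a member's log2 fold change had a median of 0.17 and ranged widely, from 0.04 for Brip1os to 0.62 for Gm14493, which sets the size of change that each could show.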
